A study of Mus musculus with 224 samples.

Results

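Expression in the medial prefrontal cortex (PFC) was compared between ethanol-drinking mice that had inhaled ethanol vapor and ethanol-drinking mice that had inhaled air. The comparison holds 23 of the 224 arrays of the series, 12 of the CIE Drinking group and 11 of the Air Drinking group, chosen because their titles name the medial prefrontal cortex and a drinker. CIE stands for chronic intermittent ethanol, a procedure in which repeated days in a vapor chamber make rodents dependent on ethanol. All animals were male C57BL/6J mice, an inbred strain that drinks ethanol readily, bought at an age of 10 weeks, and each array held the PFC of 1 mouse. Both groups had 6 weeks of baseline access to 15% (v/v) ethanol and water, followed by 4 cycles. In each cycle the mice spent 16 h a day for 4 days in the chambers, then 72 h in abstinence, then had 5 days with 2 h of access to the ethanol bottle. An injection preceded each chamber session. It held pyrazole, which slows the breakdown of ethanol, at 1 mmol/kg for all mice, to which ethanol at 1.6 g/kg was added for CIE mice. The comparison therefore contrasts vapor and drinking with drinking alone, and neither group was free of ethanol or of pyrazole. The paper reports that CIE Drinking mice also drank significantly more ethanol than Air Drinking mice after most of the vapor cycles. Vapor and this higher intake cannot be told apart here, and "vapor effect" below covers both. The CIE NonDrinking and Air NonDrinking groups, with 12 arrays each in the PFC, had the same vapor or air but water only. They serve below to show where a gene stood without drinking, although CIE NonDrinking mice were days further from their last ethanol at sacrifice than the drinkers.

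The PFC is a layered cortex. Neurons of the upper layers mostly connect cortical areas with each other, those of layer 5 project to subcortical targets, those of layer 6 to the thalamus, and layer 6b is a thin sheet of neurons on the white matter. Each layer carries its own transcription factors and peptides, so that marker genes report on layers even in a homogenate. The PFC exerts control over drinking and is one of the regions whose function changes with ethanol dependence. In bulk tissue such as this, fewer cells of a type and less RNA per cell cannot be told apart.

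Expression is given as log2 values, in which a difference of 1 is a doubling. Differences were tested with LIMMA in 1 fit of all 47 PFC arrays, with Benjamini-Hochberg adjustment over all 45037 probesets, and calls were made where the adjusted p did not exceed 0.01. For each gene the probeset with the highest mean over the PFC arrays was taken as representative. Array medians lay between 6.07 and 6.14, and arrays correlated with each other at 0.989 to 0.999. Air Drinking mouse 28 stood apart, with a median correlation of 0.994 with its own group. Without it, 615 probesets were called in place of 840, of which 563 were among the 840. On the first principal component of the PFC arrays the 5 highest scores were 35.1 for mouse 28 and, in the Air NonDrinking group, 48.2 for mouse 51, 44.3 for mouse 48, 34.5 for mouse 53 and 23.3 for mouse 47. Mice 48 and 51 were left out in an added fit, and mice 47 and 53 were not. As a check of the tissue, Slc17a7, the vesicular glutamate transporter of cortical neurons, had a median of 8.96 over the PFC arrays, against 9.48 in the hippocampus (HPC), 6.01 in the nucleus accumbens (NAC), 7.84 in the amygdala's central nucleus (CeA) and 4.56 in the bed nucleus of the stria terminalis (BNST). Of 5 such genes only Tbr1 had its highest median in the PFC (9.22), and all 5 were highest either there or in the HPC. Drd1, the D1 dopamine receptor of striatal neurons, had a median of 9.37, against 12.53 in the NAC and 8.70 to 9.32 in the other regions. Regions had been normalized separately, which limits such comparisons of level.

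Vapor in drinking mice was accompanied by many changes of small size. Of the 840 called probesets (1.87% of those tested), 363 were higher in CIE Drinking mice (0.806%) and 477 lower (1.06%). Their median size was 0.26, and 72 of them differed by more than 0.5 and 3 by more than 1. The called probesets with a single symbol belonged to 655 genes, and 99 called probesets had no symbol. The median change over all genes was 0.0023, a value that the quantile normalization of the arrays holds near 0. In 50 genes 2 or more probesets were called, and in 6 of these they went in opposite directions.

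**Figure D1:**
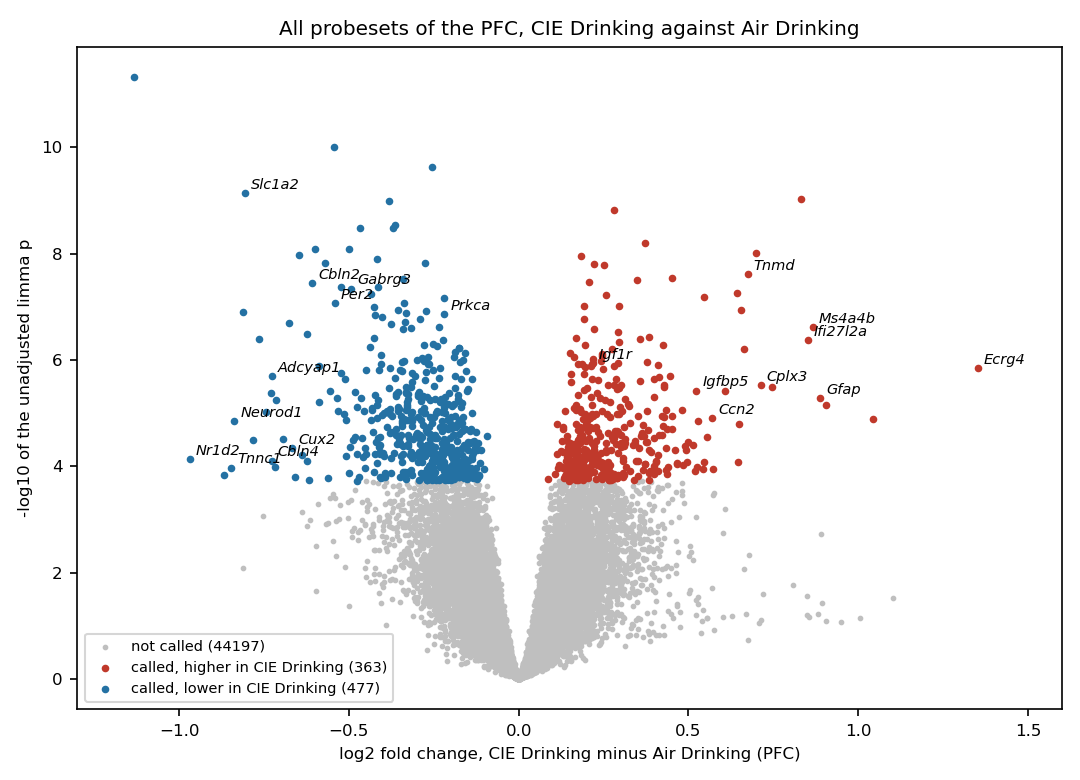
Each point is a probeset, with its log2 fold change in CIE Drinking against Air Drinking PFC on the x axis and the -log10 of its unadjusted LIMMA p on the y axis. Red marks the 363 probesets called higher, blue the 477 called lower, and gray those not called, and a selection of the named genes is written beside its points.

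The 2 groups did not overlap at all on 66 probesets (0.147%), of which CIE Drinking mice were higher on 30 and lower on 36, and 59 of the 66 were called. The synaptic organizer Cbln2, the potassium channel subunit Kcnab3 and the transcription factor Neurod1 were among those with no overlap. So were Ier5, an immediate early gene that fell by 0.60, and Slc14a1, a urea transporter that rose by 0.45, which were picked for mention after their values had been seen.

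The marker genes of upper cortical layers that were called were all lower in CIE Drinking mice, and those of layers 6 and 6b that were called were all higher. Of 16 measured genes of the upper layers, 3 were called lower and 0 higher, where 1.04% of all genes were called lower and 1.12% higher. Their median change was -0.36 and 15 of the 16 lay below 0. Cux2, a transcription factor of upper-layer neurons, ranged from 7.81 to 8.50 with a median of 8.01 in CIE Drinking mice and from 8.16 to 9.39 with a median of 8.71 in Air Drinking mice. All 12 CIE Drinking arrays were below the Air Drinking mean, and 9 were below every Air Drinking array. Cux2 thus fell by 0.67 ± 0.15 (SE; LIMMA adjusted p = 0.00425), or 1.59-fold, although its other probesets changed by only -0.19 to -0.01. Pou3f2, a POU-domain factor of upper-layer neurons, was called on 3 probesets, which fell by 0.43, 0.41 and 0.39. On the representative probeset it ranged from 7.25 to 7.81 in CIE Drinking and from 7.74 to 8.29 in Air Drinking mice, so that the groups barely touched. Rorb, a nuclear receptor that marks layer 4, fell on 3 probesets by 0.50, 0.42 and 0.41. Rasgrf2, an exchange factor for Ras and Rac in upper-layer neurons, fell by 0.51 ± 0.10 (LIMMA adjusted p = 0.00204) on a probeset other than the representative.

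Layer 5 genes were divided, with a median of -0.016 and none of 9 called by the representative probeset, while Tcerg1l was called lower on another (-0.23 ± 0.05, LIMMA adjusted p = 0.00371), a call lost when the arrays were quantile-normalized again. All 11 genes of layer 6 were above 0, from 0.093 to 0.27 with a median of 0.18, and none was called by the representative probeset. Foxp2, a forkhead factor of corticothalamic neurons, rose on another probeset by 0.29 ± 0.06 (LIMMA adjusted p = 0.00271).

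In layer 6b and claustrum 4 of 10 genes were called higher by the representative probeset, against 1.12% of all genes, and 0 lower. The list median was 0.21 and 7 of the 10 lay above 0, with Synpr at -0.20, Ntng2 at -0.10 and Gnb4 at -0.08. Cplx3, a complexin that regulates SNARE-mediated vesicle fusion, ranged from 9.08 to 9.78 with a median of 9.49 in CIE Drinking mice and from 8.20 to 9.15 with a median of 8.85 in Air Drinking mice. The ranges met only at their ends, as 11 of 12 CIE Drinking arrays were above every Air Drinking array. The rise was 0.71 ± 0.13 (LIMMA adjusted p = 0.00091), or 1.64-fold. Ccn2, a secreted matricellular protein, ranged from 11.67 to 12.18 against 10.99 to 11.77 and rose by 0.57 ± 0.12 (LIMMA adjusted p = 0.00197). Moxd1, a relative of dopamine beta-hydroxylase, rose by 0.43 and the zinc transporter Tmem163 by 0.38.

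Markers of neighboring tissue and of glia lay mostly above 0 in the same comparison. All 9 measured genes of striatal projection neurons were above 0, with a median of 0.52 and no call, and Drd1 was at 0.44 (LIMMA adjusted p = 0.0868). The mean level of this list ranged from 6.92 to 8.90 in CIE Drinking mice and from 6.74 to 8.80 in Air Drinking mice, so that the groups overlapped almost fully. Of 23 genes of myelin and oligodendrocytes, 22 were above 0 with a median of 0.25, and 3 were called higher, against 1.12% of all genes. All 12 genes of the meninges (median 0.23) and all 9 of the choroid plexus (median 0.15) were also above 0 with no call. Among the choroid plexus genes Otx2, at a median of 3.34 over the PFC arrays, lay near the lowest value on any PFC array (2.63), whereas Ttr, the carrier of thyroxine, ranged from 8.34 to 12.75 in CIE Drinking and from 7.44 to 11.73 in Air Drinking mice. The 5 genes used to check for cortical tissue had a median of -0.019 and no call, with Neurod6 at -0.02. The part of neighboring tissue and of glia in the changes of the layer genes was not tested.

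Without Air Drinking mouse 28, which had the highest mean level of upper-layer genes (8.37), the median of the upper-layer list was -0.32 and 1 gene of it was called by the representative probeset. The calls of Cux2 and of all 3 Rorb probesets were then lost, while the 4 calls in layer 6b and the 3 in myelin held. The lists of layer 6 and of striatal neurons had medians of 0.15 and 0.51 without it.

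**Figure D2:**
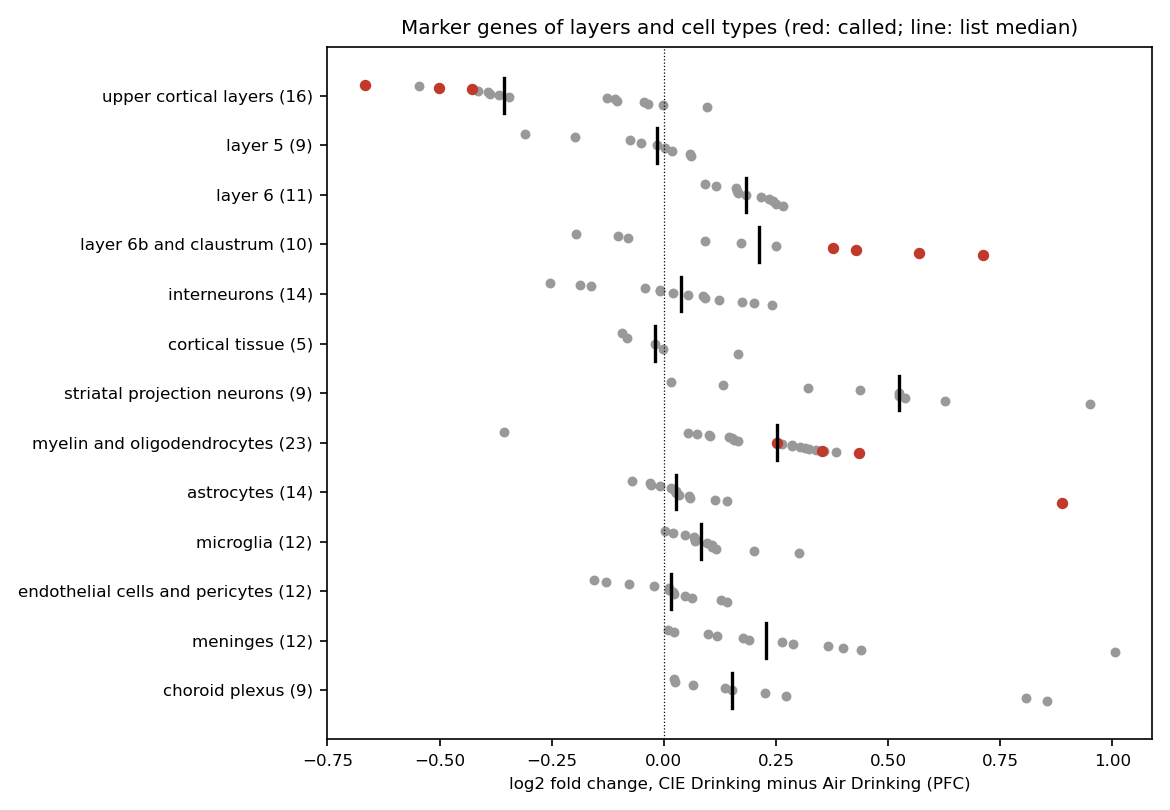
Each dot is a marker gene by its representative probeset, with its log2 fold change in CIE Drinking against Air Drinking PFC on the x axis and its list, with the number of genes measured, on the y axis. Red dots were called and black lines are list medians, which run from -0.36 in the upper cortical layers to 0.21 in layer 6b and 0.52 in striatal projection neurons.

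In the cerebellin family and its partners, 2 of 7 measured genes were called lower, against 1.04% of all genes, and 0 higher. Cerebellins are secreted into the synaptic cleft, where they bind neurexins on the presynaptic side. Cbln2 ranged from 8.31 to 8.72 with a median of 8.50 in CIE Drinking mice and from 8.87 to 9.47 with a median of 9.04 in Air Drinking mice, with no overlap. It fell by 0.61 ± 0.09 (LIMMA adjusted p = 5.92e-05), or 1.53-fold. Cbln4 ranged from 4.98 to 5.87 with a median of 5.41 against 5.67 to 6.73 with a median of 6.09, and 9 of 12 CIE Drinking arrays were below every Air Drinking array. Its fall of 0.73 ± 0.17 (LIMMA adjusted p = 0.00594) lost its call without mouse 28. At a mean of 5.74 over the PFC arrays, Cbln4 lay under the limit of 6.10 used for dim probesets. The other 5 measured genes of the family and its partners were not called, and the list had a median of -0.027.

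Of 18 neuropeptide precursors, 1 was called lower and 1 higher, where 1.04% of all genes were called lower and 1.12% higher. Adcyap1, which encodes the peptide PACAP, ranged from 6.92 to 7.89 with a median of 7.39 in CIE Drinking mice and from 7.75 to 8.56 with a median of 8.001 in Air Drinking mice. The overlap was confined to the edge of the ranges, and the fall was 0.73 ± 0.13 (LIMMA adjusted p = 0.000708), or 1.66-fold. Pnoc, the precursor of nociceptin, rose by 0.24 ± 0.06 (LIMMA adjusted p = 0.00914), and its call was lost without mouse 28 and in a fit of the 2 groups alone. Oprl1, the receptor for nociceptin, fell by 0.53 ± 0.11 (LIMMA adjusted p = 0.0017) on a probeset whose values ran from 4.92 to 5.98 against 5.39 to 6.13, while its other probesets were at -0.19 and -0.02. Crhr1, the receptor for the stress peptide corticotropin-releasing hormone, fell by 0.50 ± 0.11 (LIMMA adjusted p = 0.0042) and by 0.35 on 2 probesets, and both calls were lost without mouse 28. No other of the 23 peptide receptors was called.

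Among receptors and channels the calls were few and mostly toward lower expression. Gabrg3, the gamma3 subunit of the GABA-A receptor, ranged from 6.67 to 7.39 with a median of 7.23 in CIE Drinking mice and from 7.37 to 7.82 with a median of 7.68 in Air Drinking mice. Only 1 CIE Drinking array reached the range of the other group, and the fall was 0.49 ± 0.08 (LIMMA adjusted p = 6.79e-05). Its other probesets were between 0.04 and 0.10, and no other of 12 measured GABA-A subunits was called. None of 15 ionotropic glutamate receptor subunits was called, with a median of 0.0053. Homer1, a postsynaptic scaffold of metabotropic glutamate receptors, fell by 0.39, 0.38 and 0.25 on 3 of its 6 probesets.

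Of 30 voltage-gated potassium channel genes, 3 were called lower by the representative probeset and 5 by any probeset, against 1.04% and 2.05% of all genes, and 0 were called higher. Kcnab3, a beta subunit of voltage-gated potassium channels, ranged from 6.19 to 6.71 against 6.79 to 7.23 with no overlap, and fell by 0.43 ± 0.07 (LIMMA adjusted p = 0.000277), with its other probeset at -0.08. Kcnh5 fell by 0.38, Kcnip2 by 0.38, Kcnc1 by 0.14 and Kcnq3 by 0.13. The last 3 lost their calls in a fit of the 2 groups alone, and Kcnc1 and Kcnq3 also without mouse 28, and Kcnc1 when the arrays were quantile-normalized again. Of the G protein-gated inward rectifiers, Kcnj6, a channel subunit that ethanol acts on directly, fell by 0.33 ± 0.06 (LIMMA adjusted p = 0.00126) on 1 of 5 probesets, and its other probesets were between -0.12 and -0.03. Kcnj5 rose by 0.42 ± 0.09 (LIMMA adjusted p = 0.00186) on 1 of 2 probesets, which was dim at a mean of 4.45, with the other at 0.02. Kcnj3 (0.03) and Kcnj9 (-0.11) were not called. Cacng5, a gamma subunit that associates with AMPA receptors, rose by 0.42 ± 0.09 (LIMMA adjusted p = 0.00307). Prkca, protein kinase C alpha, fell on 3 probesets by 0.22, 0.29 and 0.62, the last of which lost its call without mouse 28, with renewed quantile normalization and with trend and robust variances.

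Of 31 genes of the machinery of vesicle release, 2 were called higher by the representative probeset, against 1.12% of all genes. By any probeset 2 were called lower, against 2.05%. Cplx3 and the priming factor Unc13a (0.21 ± 0.05, LIMMA adjusted p = 0.00495) rose, while Rab3c and Syn2 fell by 0.28 and 0.17 on other probesets. The calls of Unc13a, Rab3c and Syn2 were lost without mouse 28, and that of Syn2 also in a fit of the 2 groups alone. The median over 31 genes of this list was -0.0082.

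**Figure D3:**
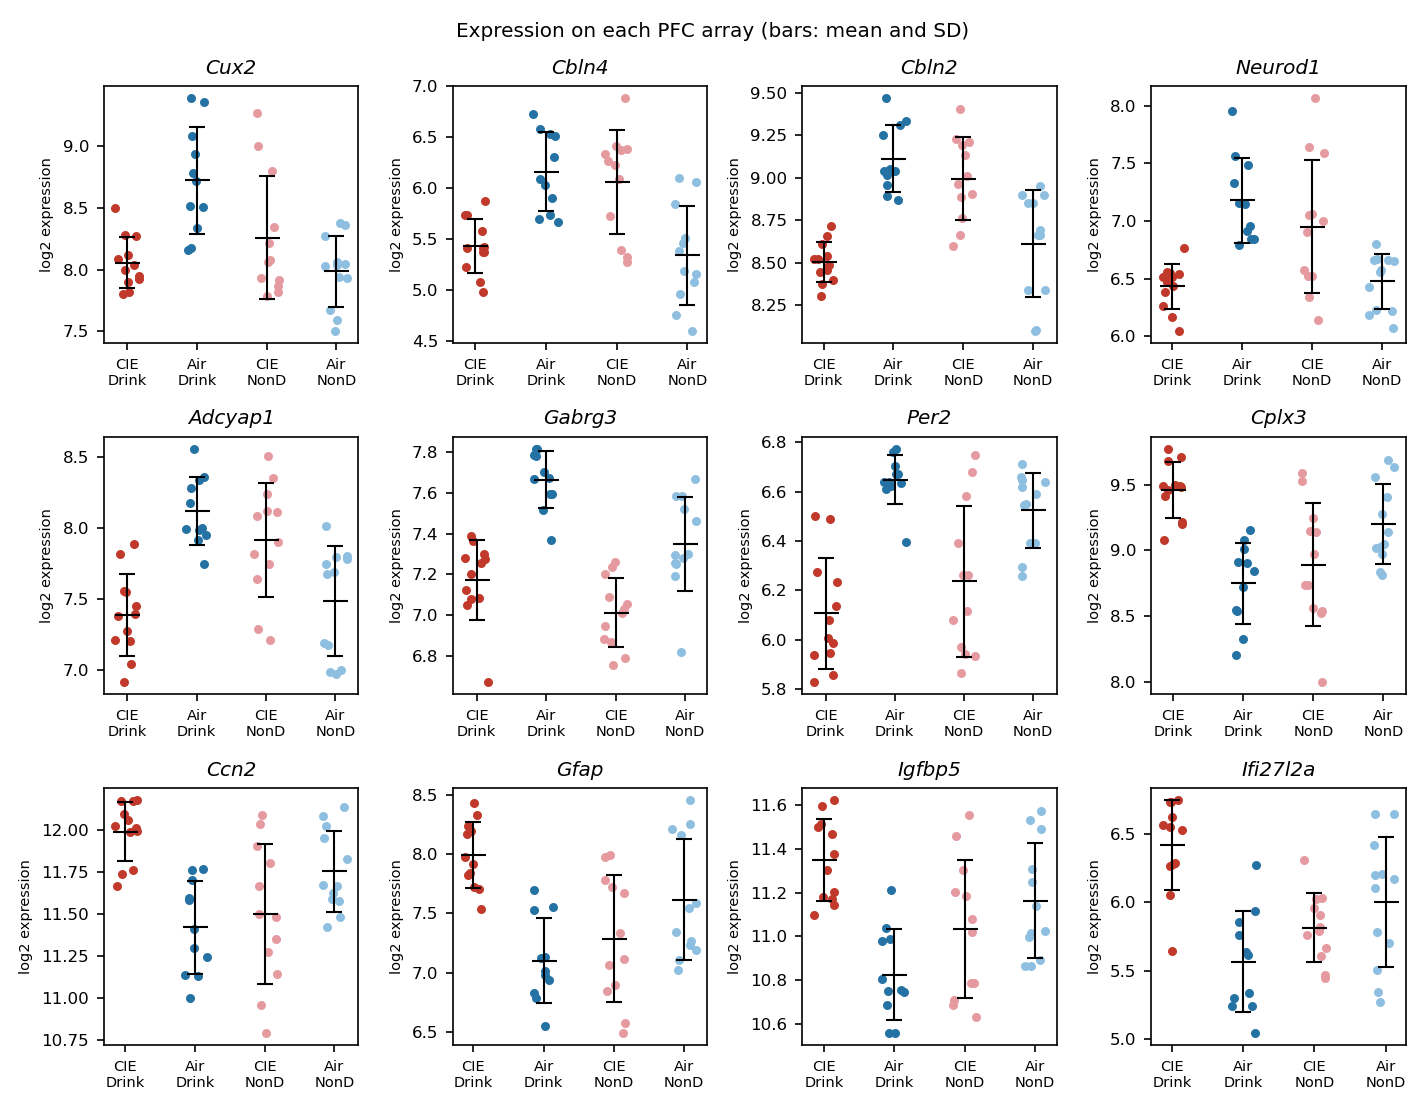
Log2 expression of 12 genes on each PFC array, by group (drinking and nondrinking mice after CIE or air), with a point for each array and bars for the mean and SD. The axes differ between genes and do not start at 0. For Cbln2, Cux2 and Adcyap1 the CIE Drinking points lie low beside Air Drinking points, and for Cplx3, Gfap and Igfbp5 they lie high.

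The clock genes that were called were all lower in CIE Drinking mice. The circadian clock is a feedback loop of transcription factors that runs in most cells, and ethanol and the time of death both bear on it. By the paper, mice were killed on the last drinking day, at the time of day of their earlier drinking sessions. Of 18 clock genes, 2 were called lower by the representative probeset and 4 by any probeset, against 1.04% and 2.05% of all genes, and 0 were called higher. The list median was -0.050. Per2, a repressor in this loop, ranged from 5.83 to 6.50 with a median of 6.04 in CIE Drinking mice and from 6.40 to 6.77 with a median of 6.64 in Air Drinking mice. It fell by 0.54 ± 0.09 (LIMMA adjusted p = 0.000104) on a probeset other than the representative, and its other probesets were at -0.22 and -0.14. Nr1d2, the nuclear receptor REV-ERB beta, had the largest called fall of a probeset with a single symbol, 0.97 ± 0.22 (LIMMA adjusted p = 0.0057). Its values ran from 4.79 to 6.85 against 5.12 to 6.94, the ranges overlapped widely, the other probeset was at -0.06, and the call was lost without mouse 28. Rora, a receptor that binds the same DNA element, fell by 0.30 and 0.23 on 2 probesets, and Hlf, a PAR bZIP output factor, by 0.27 ± 0.06 (LIMMA adjusted p = 0.00454). The smaller fall of Rora lost its call without mouse 28.

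Of 20 immediate early genes 16 were below 0, with a median of -0.12, and 0 were called by the representative probeset. Only Homer1 was called by other probesets, and its representative one was at -0.13 without a call (LIMMA adjusted p = 0.0149). In the list of genes that respond to glucocorticoids, Klf9, a Kruppel-like factor, fell by 0.46 and Tsc22d3, a leucine zipper protein induced by corticosterone, by 0.28. Both were called on 1 probeset other than the representative, which was at 0.08 for Klf9 and -0.03 for Tsc22d3 without a call. The list median was 0.050 with 11 of 14 genes above 0. The call of Tsc22d3 was lost without mouse 28 and in a fit of the 2 groups alone.

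The DNA upstream of the called clock and immediate early genes is shown because their called probesets all fell. It was searched for elements known from such genes. The 250 bases before each RefSeq start (GRCm38.p6) were searched on both strands for the E-box CACGTG, the D-box TTATGTAA, the half-site AGGTCA of ROR and REV-ERB receptors and the cAMP response element TGACGTCA. Of 32851 promoters in the RefSeq table, 6.02%, 0.819%, 14.0% and 1.55% held them, in that order. Promoters were listed for 4 of the 5 genes, and 3 of these held a match, in capitals below, within up to 25 bases of context on either side.
Nr1d2, chr14:18239153-18239208, minus strand: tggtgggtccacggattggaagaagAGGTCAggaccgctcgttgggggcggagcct
Homer1, chr13:93307837-93307892, plus strand: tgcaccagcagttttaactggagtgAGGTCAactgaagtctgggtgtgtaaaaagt
Hlf, chr11:90390918-90390951, minus strand: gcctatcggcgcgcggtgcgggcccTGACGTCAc
The half-site lies 72 to 77 bases before the start of Nr1d2 and 167 to 172 bases before a start of Homer1. The cAMP response element of Hlf ends 2 bases before its start. No occupancy was measured, and these matches describe the sequence alone.

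Neuronal differentiation factors had 1 call in each direction among 9 genes, where 1.04% of all genes were called lower and 1.12% higher. Neurod1, a basic helix-loop-helix factor, ranged from 6.04 to 6.77 with a median of 6.49 in CIE Drinking mice and from 6.79 to 7.95 with a median of 7.15 in Air Drinking mice. The groups did not overlap, and the fall was 0.74 ± 0.15 (LIMMA adjusted p = 0.00171), with a fall of 0.84 on its other probeset. Id2, an inhibitor of such factors, rose by 0.21 ± 0.04 (LIMMA adjusted p = 0.00194).

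Gfap, the intermediate filament of astrocytes, had the largest called rise of any representative probeset. It ranged from 7.53 to 8.43 with a median of 7.95 in CIE Drinking mice and from 6.55 to 7.69 with a median of 7.02 in Air Drinking mice. In 11 of 12 CIE Drinking arrays it was above every Air Drinking array, and the rise was 0.89 ± 0.17 (LIMMA adjusted p = 0.00125), or 1.85-fold, with rises of 0.65 and 0.53 on 2 further probesets. The astrocyte list as a whole had a median of 0.027 over 14 genes, and Aldoc, a glycolytic enzyme of astrocytes, was at 0.02. Slc1a2, the glial glutamate transporter, gave 2 answers. Its representative probeset, with a median of 13.33 in CIE Drinking and 13.28 in Air Drinking mice, was not called (0.06 ± 0.03), and a dimmer probeset with medians of 5.90 and 6.73 fell by 0.81 ± 0.11 (LIMMA adjusted p = 7.75e-06). Fgfr3, a receptor tyrosine kinase of astrocytes, likewise fell by 0.34 on its dimmer probeset while its other was at 0.01.

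In oligodendrocytes, the tetraspanin Cd9 rose by 0.44 ± 0.09 (LIMMA adjusted p = 0.00263), the lineage factor Olig2 by 0.35 ± 0.08 (LIMMA adjusted p = 0.00423) and the secreted Lgi4 by 0.25 ± 0.06 (LIMMA adjusted p = 0.0081). The call of Lgi4 was lost when the arrays were quantile-normalized again. Mbp, the myelin basic protein, ranged from 13.98 to 14.13 against 13.79 to 14.09 and was not called (0.10 ± 0.04). Mobp, another myelin protein, was at 0.25 without a call (LIMMA adjusted p = 0.0165). Gsn, the actin-severing protein gelsolin, rose by 0.40 to 0.45 on 3 probesets whose suffix marks possible binding of other transcripts, and 1 of the 3 lost its call without mouse 28.

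None of 12 genes of microglia and 12 of endothelial cells and pericytes was called. Microglial genes had a median of 0.084 with 12 of 12 above 0. The 2 with the highest mean level, Csf1r and C1qa, had changes of 0.0024 and 0.10. Endothelial and pericyte genes had a median of 0.017, with Slco1a4 at -0.08 and Rgs5 at -0.16. None of 14 interneuron genes was called either, and Gad1, which makes GABA, was at 0.05 and the calcium buffer Pvalb at -0.04.

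Genes of the IGF system rose where they were called, 4 of 17, where 1.12% of all genes were called higher. None was called lower, and the list median was 0.0008. Igfbp5, a binding protein that holds IGFs outside the cell, ranged from 11.10 to 11.62 with a median of 11.34 in CIE Drinking mice and from 10.56 to 11.21 with a median of 10.76 in Air Drinking mice. Of 11 Air Drinking arrays, 10 were below every CIE Drinking array, and the rise was 0.52 ± 0.10 (LIMMA adjusted p = 0.00105), with its other probeset at -0.15. The rise thus rests on a probeset with the suffix _s_at, which marks possible binding of other transcripts. Igfbp3 rose by 0.41 and 0.31 on 2 probesets. Pappa2, a protease that frees IGFs by cutting binding proteins, rose by 0.52 ± 0.12 (LIMMA adjusted p = 0.00697), and the receptor Igf1r by 0.22 ± 0.04 (LIMMA adjusted p = 0.000513) and by 0.17. Igf1r ranged from 10.12 to 10.35 against 9.97 to 10.12, and 11 of 12 CIE Drinking arrays were above every Air Drinking array. The calls of Pappa2 and of the second probeset of Igf1r were lost without mouse 28.

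Interferon-responsive genes had 3 of 19 members called higher, against 1.12% of all genes, and 0 lower, with a median of 0.13. Ifi27l2a, an interferon-induced membrane protein, ranged from 5.65 to 6.75 with a median of 6.54 against 5.04 to 6.27 with a median of 5.62, so that all 12 CIE Drinking arrays exceeded the Air Drinking mean. Its rise was 0.85 ± 0.15 (LIMMA adjusted p = 0.000287), or 1.80-fold. Oasl2, an oligoadenylate synthetase-like protein, rose by 0.44 and Stat2, a signal transducer of type I interferon, by 0.19. Oasl2 was dim at a mean of 3.85, and Ifi27l2a at 5.96 also lay under the limit of 6.10 used for dim probesets. Oasl2 lost its call in a fit of the 2 groups alone, and Stat2 without mouse 28 and with a trend and robust variances. Outside this list, Ms4a4b, a membrane protein known from T cells, rose by 0.87 ± 0.14 (LIMMA adjusted p = 0.000199) and Cd52, a surface glycoprotein of lymphocytes, by 0.50 ± 0.12 (LIMMA adjusted p = 0.00611). Ms4a4b was dim in both groups, from 3.93 to 5.50 against 3.54 to 4.66.

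Sarcomere genes gave 2 of 22 called lower, against 1.04% of all genes. Tnnc1, the slow troponin C, fell by 0.85 ± 0.20 (LIMMA adjusted p = 0.00704) and Tcap, the titin cap protein, by 0.62 ± 0.14 (LIMMA adjusted p = 0.00596). Both calls were lost without mouse 28, which had the highest mean level of the sarcomere list of any array of its group (6.20), and that of Tnnc1 also with array quality weights. Tcap was dim at a mean of 5.65. The remaining list had values on both sides of 0 and a median of -0.027. Of 28 Wnt signaling genes, 1 was called higher by the representative probeset and 2 by any probeset, against 1.12% and 1.58% of all genes. They were the receptor Fzd7 by 0.54 ± 0.13 (LIMMA adjusted p = 0.0074), whose other probeset was at -0.12, and the ligand Wnt5a by 0.26 on 1 of its 4 probesets. The call of Fzd7 was lost without mouse 28, which left 0 by the representative probeset.

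Of the other lists, chaperones had 1 of 27 genes called lower, against 1.04% of all genes. This was Hyou1, which fell by 0.17 and lost its call without mouse 28. Enzymes of ethanol and aldehyde metabolism had 1 of 15 called higher by any probeset, against 1.58% of all genes. This was Aldh9a1, which rose by 0.25 on 1 of 2 probesets. Chromatin genes that the study had named on these samples are no independent list. Of 11 measured, 1 was called lower by the representative probeset, against 1.04% of all genes. It was Klhdc3 (-0.14 and -0.16 on 2 probesets). Bcor was called higher (0.34) by another probeset, and its representative one was at 0.14 without a call. By any probeset 1.58% of all genes were called higher. Klhdc3 did not overlap between groups on its second probeset, with a range of 11.61 to 11.72 against 11.74 to 11.91. None of 19 neurotrophin and growth factor genes and 17 phosphodiesterases was called.

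The remaining large rises were those of Ecrg4, Tnmd, Inpp4b, Ly6g6e, Efnb3 and Svil. Ecrg4, the precursor of the secreted peptide augurin, rose by 1.35 ± 0.25 (LIMMA adjusted p = 0.000575) on a dim probeset, from 3.87 to 6.22 against 3.29 to 4.26, and by 0.75 on the representative one. Tnmd, a transmembrane glycoprotein known from tendon, rose by 0.67 ± 0.10 (LIMMA adjusted p = 4.86e-05), and 11 of 12 CIE Drinking arrays exceeded every Air Drinking array. Inpp4b, a phosphoinositide phosphatase, rose by 0.52, Ly6g6e by 0.51, the ephrin Efnb3 by 0.49 and the actin-binding Svil by 0.49. Rises by probesets other than the representative were led by Kif13b, a kinesin (0.66), Sema5b, a semaphorin (0.61), and Clic5 (0.55), and Clic5 was called on 3 probesets, 1 of which lost its call without mouse 28. Rps27l, a ribosomal protein of the p53 response, rose by 0.18 to 0.20 on 3 probesets.

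Large falls outside the lists were those of Gm12371 (-0.87), Ptgfrn (-0.78), Lemd1 (-0.72), Tafa2 (-0.56) and Morc2b (-0.48). Ptgfrn, a partner of tetraspanins such as Cd9, ranged from 6.45 to 7.68 against 7.49 to 8.57 and fell by 0.78 ± 0.17 (LIMMA adjusted p = 0.00345). Strbp fell by 0.81 and Arhgap26 by 0.77 on 1 probeset each, while their other probesets lay between -0.16 and 0.10. The calls of Gm12371, Lemd1, Tafa2 and Inpp4b were lost without mouse 28, those of Gm12371 and Tafa2 also with trend and robust variances, and that of Lemd1 with array quality weights.

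The vapor effect was tested for a difference between drinking and nondrinking mice, and 1315 of 45037 probesets (2.92%) passed. In nondrinking mice alone vapor called 569 probesets (1.26%). Of the 840 probesets called in drinking mice, 425 passed the test of the difference, which uses the same drinking arrays and so is not independent of their choice. The nondrinking effect shares no array with the effect in drinking mice, although its arrays entered the variances of the fit and the joint normalization, and there 538 of the 840 (64.0%) had the opposite sign, against 50.9% of all probesets. Of the 840, 44 were also called in nondrinking mice, where 1.26% of all probesets were. Among these 44, 18 went in the same direction and 26 in opposite directions. Without Air NonDrinking mice 48 and 51, vapor called 278 probesets in nondrinking mice, and 573 of the 840 (68.2%) had the opposite sign against 55.6% of all probesets.

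All 15 of the largest rises had a negative vapor effect in nondrinking mice, and 12 of the 15 largest falls a positive one. Cbln4 fell by 0.73 in drinking mice and rose by 0.72 ± 0.16 in nondrinking mice (LIMMA adjusted p = 0.00717). Its means were 5.43 ± 0.27 in CIE Drinking (SD, n = 12), 6.16 ± 0.39 in Air Drinking (n = 11), 6.06 ± 0.51 in CIE NonDrinking (n = 12) and 5.34 ± 0.48 in Air NonDrinking mice (n = 12). Mice with either vapor or drinking alone thus had the higher levels, and mice with both or neither the lower. Cbln2 followed the same order, with means of 8.50, 9.11, 9.00 and 8.61, and rose by 0.38 ± 0.09 in nondrinking mice (LIMMA adjusted p = 0.00931). Gabrg3 and Morc2b behaved otherwise, since vapor lowered both in nondrinking mice as well, by 0.34 ± 0.07 (LIMMA adjusted p = 0.00485) and 0.46 ± 0.10 (LIMMA adjusted p = 0.00576). Without Air NonDrinking mice 48 and 51 these 4 genes had nondrinking effects of 0.64, 0.39, -0.30 and -0.42 and were no longer called there, with LIMMA adjusted p of 0.0289, 0.0143, 0.0221 and 0.0221. For Per2 the nondrinking effect was -0.29 and the difference was not called.

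The medians of most gene lists, not only of those given next, had opposite signs in drinking and nondrinking mice, though many lay near 0. Upper-layer genes had a median of -0.36 in drinking and 0.072 in nondrinking mice, layer 6b genes 0.21 and -0.12, myelin genes 0.25 and -0.14, and striatal genes 0.52 and -0.30. Of 23 measured myelin genes, 2 were called lower in nondrinking mice, where 1.26% of all probesets were called in either direction. Of the 840 probesets, 539 (64.2%) had an Air NonDrinking mean nearer to CIE Drinking than to Air Drinking mice, against 46.7% of all probesets, and for the CIE NonDrinking mean the numbers were 367 (43.7%) and 42.3%.

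**Figure D4:**
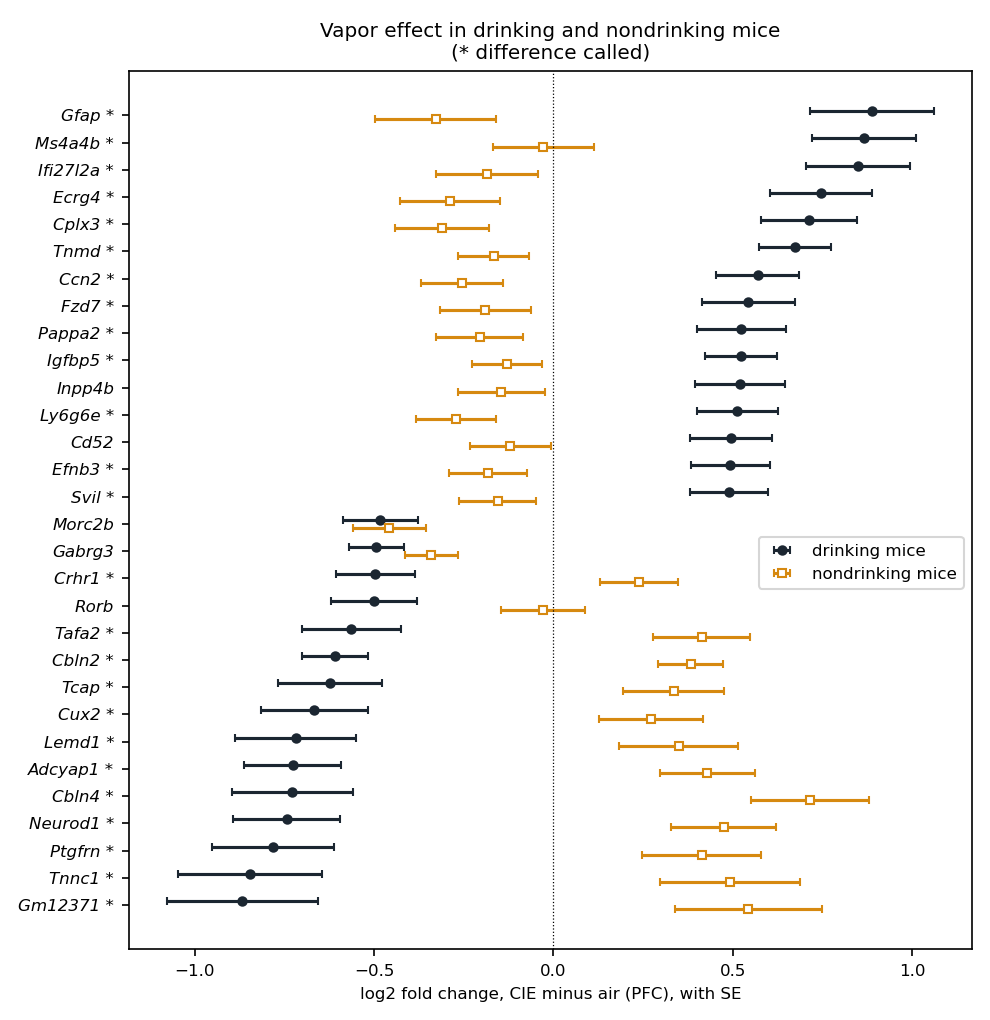
Log2 fold change of CIE against air in the PFC, with its standard error, of the 15 largest rises and 15 largest falls, in drinking mice (filled circles) and nondrinking mice (open squares). A star marks the 25 genes whose difference between both was called. The rises in drinking mice stand opposite negative values in nondrinking mice, and only Morc2b, Gabrg3 and Rorb among the falls stay below 0.

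The same contrast of CIE Drinking with Air Drinking mice was set against the other regions. Between the PFC and the NAC 343 of 43893 probesets differed in their response (0.781%), against 954 for the HPC (2.17%), 1023 for the BNST (2.33%) and 1873 for the CeA (4.27%). These counts do not measure likeness, as each depends on the spread within the other region. Of the 102 called probesets named here, 2 were called in the HPC, where 1.23% of all probesets were, and 2 in the BNST, where 0.943% were. The NAC and CeA had 0 each, with 0.282% and 0.177% of all probesets called, so nothing is read from these counts. Both HPC probesets were of Homer1, which rose there by 0.69 and 0.74 where it fell in the PFC. In the BNST Rorb rose by 0.47 and Rab3c by 0.29, also against their fall in the PFC.

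Responses of 12 of the 102 probesets differed between the PFC and each of the other 4 regions, against 0.235% of all probesets and 74 of the 839 called in the PFC and measured in all regions (8.82%). The 102 were called in the PFC arrays that enter each difference, which favors such an outcome, so nothing is read from the first share. The 12 were probesets of Clic5, Igfbp5, Pou3f2, Morc2b, Per2, Prkca, Tcap, Cux2, Ptgfrn, Slc1a2, Tnnc1 and Nr1d2. Beside its -0.54 in the PFC, Per2 had 0.16 (NAC), 0.13 (HPC), 0.10 (BNST) and 0.18 (CeA). Ms4a4b stood at the other end, with values of 0.69, 0.61, 1.06 and 1.27 in these regions beside 0.87 in the PFC, although it was called in the PFC alone. Cplx3, Ccn2 and Ly6g6e, which rose in the PFC, were at -0.80, -1.32 and -0.98 in the NAC without a call.

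**Figure D5:**
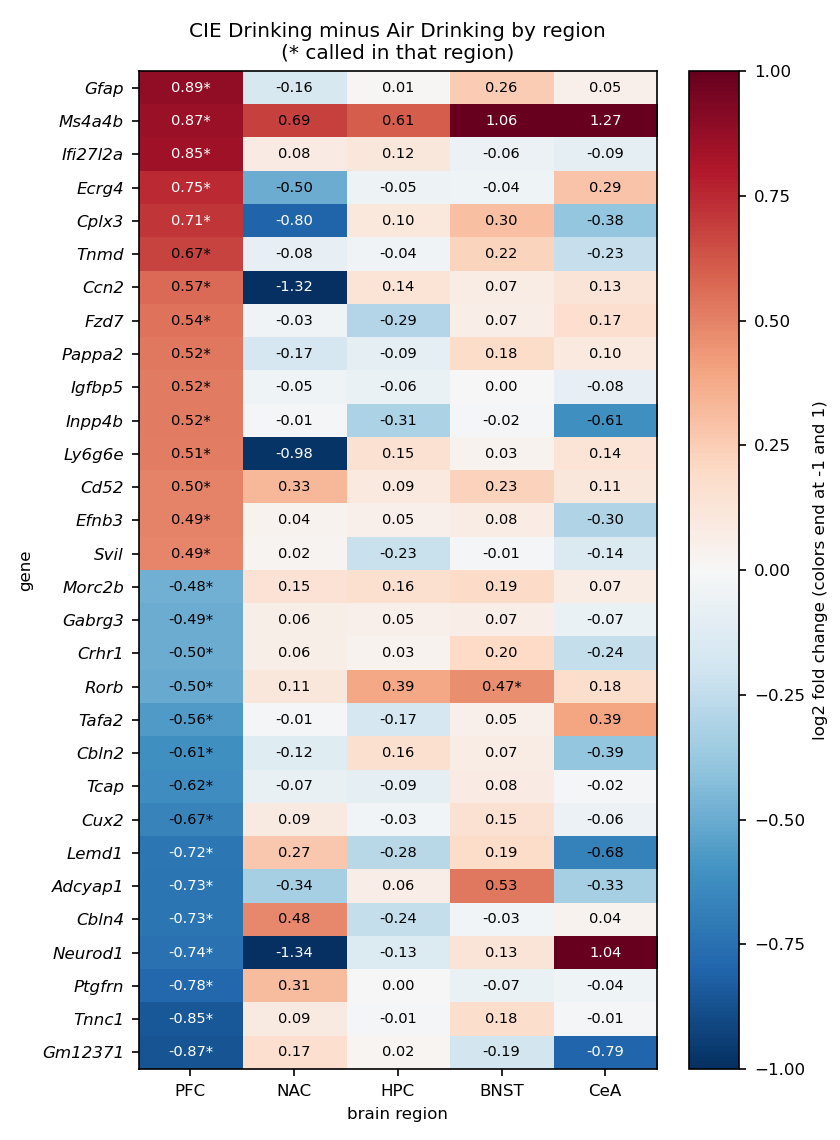
Log2 fold change of CIE Drinking against Air Drinking mice in the 5 regions, by column, for the 15 largest rises and 15 largest falls of the PFC, by row. Red is higher and blue lower in CIE Drinking mice, numbers are the changes, and stars mark calls. Outside the PFC only Rorb in the BNST carries a star.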

How the data were processed

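Total RNA of each region was hybridized by the authors to Affymetrix whole-genome mouse arrays. The deposited values are log2 expression after RMA background correction and summarization, quantile normalization within each region and ComBat adjustment for hybridization batch by the authors. The batch of an array is not given in the sources used here, so that values by batch are missing, and ComBat can make the spread within groups look smaller than it was. The authors had removed arrays of low quality. All 47 PFC arrays were used, and their number, not a read depth, limits the precision.

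Groups came from the sample titles. Values were fitted with limma 3.58.1 (statmod 1.5.0, R 4.3.3) with 1 mean per group, default empirical Bayes variances, two-sided tests and Benjamini-Hochberg adjustment over all probesets, at an adjusted p of 0.01. Region differences came from a fit of all 5 regions with 1 mean per region and group. Platform annotation gave a single symbol to 34945 probesets (18193 genes), several to 932 and none to 9160, and none was named from several. In simulated data with the PFC group sizes, limma was tested before use. Replicates are separate mice.

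Named genes were, by rule, the 15 largest called rises and falls of representative probesets, the 5 largest of each by other probesets, genes with 3 or more called probesets, every called member of the lists, and for lists that check cell types the 2 members with the highest mean. The members and the lists were chosen with earlier results of these data known. Alternatives were a filter on dim probesets (mean under 6.10), array quality weights, trend and robust variances, renewed quantile normalization, a fit of the 2 groups alone, gene means and omission of _x_at and _s_at probesets. These suffixes mark possible binding of other transcripts, and the representative probesets of Gfap, Igfbp5, Svil and Hyou1 are among those with _s_at. Fits without Air Drinking mouse 28 and without Air NonDrinking mice 48 and 51 were added after seeing the data. Tables and figures used Python 3.11.15.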

Additional observations from a re-analysis of the deposited data

Results flagged for a closer look

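The vapor effect in the PFC of drinking mice differed from that in nondrinking mice (LIMMA interaction, adjusted p of 0.01 or less) for 25 of the 30 genes with the largest rises and falls. All of these had been chosen for their size in drinking mice, which also enters the difference, and no cause was tested. Among the rises, the difference was 1.22 for Gfap, 1.04 for Ecrg4, 1.03 for Ifi27l2a, 1.02 for Cplx3 and 0.89 for Ms4a4b. It was 0.84 for Tnmd, 0.82 for Ccn2, 0.78 for Ly6g6e, 0.73 for Fzd7 and 0.73 for Pappa2. Efnb3 had 0.68, Igfbp5 0.65 and Svil 0.65. Among the falls, it was -1.44 for Cbln4, -1.41 for Gm12371, -1.34 for Tnnc1, -1.22 for Neurod1 and -1.20 for Ptgfrn. It was -1.16 for Adcyap1, -1.07 for Lemd1, -0.99 for Cbln2, -0.98 for Tafa2 and -0.96 for Tcap. Cux2 had -0.94 and Crhr1 -0.74.

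The response of drinking mice to vapor in the PFC differed from that in each of the other 4 regions for 12 named probesets, and the smallest of the 4 differences is given here. These probesets had been chosen for their calls in the PFC, whose arrays enter each difference. It was 0.51 for Clic5 and 0.52 for Igfbp5, both higher in the PFC. It was -0.40 for Pou3f2, -0.53 for Tcap, -0.55 for Morc2b, -0.60 for Cux2, -0.64 for Per2 and -0.65 for Prkca. For Ptgfrn it was -0.71, for Slc1a2 -0.73, for Tnnc1 -0.83 and for Nr1d2 -0.87.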

How the results depend on the processing

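The number of probesets called between CIE Drinking and Air Drinking PFC rose from 840 to 3189 with array quality weights (1477 higher, 1712 lower) and to 1341 in a fit of the 2 groups alone (660 higher). The difference between drinking and nondrinking mice rose from 1315 to 2607 with array quality weights. The cause was not tested. Under the other alternatives run, the count of calls stayed within 1.5 times its value, from 615 without Air Drinking mouse 28 to 1026 without dim probesets, and no named probeset changed sign in any of them. Of the 102 called probesets named, 30 lost their call without mouse 28, 7 in a fit of the 2 groups alone, 4 with renewed quantile normalization, 4 with trend and robust variances and 2 with array quality weights. Of the 55 that represent a gene, 12 lost it when all probesets of a gene were averaged, namely Cacng5, Cux2, Fzd7, Gabrg3, Id2, Igf1r, Igfbp5, Inpp4b, Kcnab3, Kcnq3, Klhdc3 and Stat2. Averaging also moved 3 of 36 list medians.

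No paired analysis was possible because the CIE Drinking and Air Drinking groups of the PFC share no mouse number. Arrays of different regions do come from the same mice, and with the mouse as a replicate block 403 probesets differed between the PFC and the NAC, 1030 for the HPC, 1084 for the BNST and 1982 for the CeA, with an estimated correlation of 0.0146, which moved no count by over 1.5 times. The number of arrays limits the precision, and dim probesets lie near the background of the array.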
